A study of Mus musculus with 12 samples.

Results

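Solute carriers, ABC transporters and ATPases were examined in RNA sequencing of brain tissue from 12 mice. The genes were the rows of the deposited count table whose recovered symbol begins with Slc, Slco, Abc or Atp, leaving out 5 carriers (Slc4a5, Slc37a2, Slc1a3, Slc17a7 and Slc27a2), and 29 of 15928 rows met this rule. The rows carry no names, and a row was named only where its mean matched a gene of the study's own table of differential expression, which 1349 rows did. Since that table ranks genes by the comparison of Tg with Wt mice, all 29 genes entered through that contrast. Their Tg and Wt values are therefore a description, and nothing is read from the tests of that difference, whose counts of calls are given below.

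The mice were 5 wild type (Wt) animals (3 females, 2 males) and 7 Tg2576 (Tg) animals (4 females, 3 males), all labelled as 11 months old. Tg2576 mice carry human APP with the Swedish mutation under the hamster prion protein promoter, a model of amyloid accumulation. The tissue was a dissected piece holding dorsal hippocampus and cortex, and RNA was sequenced after removal of ribosomal RNA. Total counts ran from 16212962 to 20996174 in Wt mice and from 15768135 to 20943197 in Tg mice.

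Solute carriers move ions, sugars, amino acids and transmitters across membranes, mostly down or coupled to an ion gradient, whereas ABC transporters and P-type ATPases spend ATP to do so. In the brain each cell type runs its own set. Astrocytes clear glutamate from synapses, mature neurons export chloride so that GABA inhibits them, and the choroid plexus, the secretory epithelium of the ventricles, couples anion exchange and chloride cotransport to the making of cerebrospinal fluid.

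The labels were first set against marker genes. App, which takes up reads of the mouse gene and possibly of the transgene, was at 1374, 1496, 1364, 1214 and 1375 CPM (counts scaled to a common library total, with TMM factors) in Wt 12, 41, 79, 80 and 95, and at 2991, 5139.5 and 5727 CPM as lowest, median and highest value of the Tg mice, so the genotypes did not overlap. Xist, the RNA of the silenced X chromosome in females, was at 199 CPM in Wt 41, a mouse labelled male, against 149.5 to 233 CPM in the 7 mice labelled female and at most 0.0563 CPM in the other 4 labelled males. Every statement on sex below therefore rests on a label that 1 library goes against. The fits of Tg against Wt below that allow for sex use this label too.

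Markers of cell types also differed between mice. Every named row, markers included, was named through the Tg and Wt comparison, so how the markers below stand to genotype is in part set by the naming, and the differences between groups are given as a description of the named genes alone. All 15 markers of choroid plexus epithelium in the list used here were named. Their summed level was 593, 105, 349, 209 and 141 CPM in Wt 12, 41, 79, 80 and 95, and 100.4, 1823 and 2349.6 CPM as lowest, median and highest Tg value. By its mean over the mice, as for the lists below, the most abundant gene was Ttr, the carrier of thyroxine in cerebrospinal fluid. It was at 371, 16.9, 168, 45.8 and 33.0 CPM in the same Wt mice. In Tg mice it was at 7.21 CPM in Tg 67 and 11.7 CPM in Tg 93, and from 898 to 1581 CPM in Tg 32, 68, 69, 91 and 92. Thus 5 Tg mice stood above every Wt mouse and 2 stood below every Wt mouse. Another of these markers, Enpp2, exceeded Ttr in Wt 41, 80 and 95, at 76.9, 131 and 85.9 CPM. It also did so in Tg 67 and 93, at 73.7 and 65.9 CPM. Of the 15 markers, 3 had no read in at least 1 mouse.

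Oligodendrocyte markers, of which 11 of 12 were named with Mbp the most abundant, summed to 3723, 1125, 2068, 1652 and 1520.4 CPM in the Wt mice and to 1538, 3747 and 6230.5 CPM as lowest, median and highest Tg value. Thalamus markers, 8 of 19 named with Amotl1 the most abundant, were highest in Tg 91 at 427 CPM, Tg 68 at 294 CPM and Tg 32 at 246 CPM, against 66.2 to 169 CPM in Wt mice. Tg 67, 69, 92 and 93 lay within that Wt range, at 99.3 to 112 CPM. Neuron markers, 3 of 12 named with Camk2a the most abundant, summed to 2872 to 4157 CPM in Wt and 2475 to 3217 CPM in Tg mice, a sum set mostly by Camk2a, while Gad2 among them had a mean of 143 CPM in Wt and 163 CPM in Tg mice. Astrocyte markers, 3 of 10 named and led by Gfap, summed to 146 to 323 CPM in Wt and 303 to 468 CPM in Tg mice.

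Ependyma markers, 2 of 9 named with Foxj1 the most abundant, summed to 5.43, 2.94, 7.88, 6.33 and 6.75 CPM in the Wt mice and to 5.77, 10.4 and 14.2 CPM as lowest, median and highest Tg value. Tg 32, 68, 69, 91 and 92 stood above every Wt mouse in this sum, Tg 32 only narrowly at 8.14 CPM. Foxj1 showed the same, but the other gene, Cfap43, did not. There Tg 69 at 3.24 CPM was below Wt 79 at 3.62 CPM, and Tg 93 at 4.3 CPM was above every Wt mouse. Microglia markers, 3 of 10 named and led by C1qb, summed to 55.9 to 71.2 CPM in Wt and 69.4 to 90.4 CPM in Tg mice. Of the leptomeninges list only Foxc1 of 12 genes was named, at 2.19 to 4.61 CPM in Wt and 3.38 to 6.06 CPM in Tg mice, and of the endothelium list none of 10. In tissue pieces, fewer cells of a type and less RNA per cell cannot be told apart.

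Of the 29 transporters and ATPases, 17 were higher and 12 lower in Tg than in Wt mice after allowance for sex and library batch. The higher ones had log2 fold changes from 0.29 to 2.08 (median 0.88), and the lower ones from -1.19 to -0.16 (median -0.24). The median over the 29 genes was 0.49, beside 0.00 over all rows. None of the 29 passed an adjusted p of 0.1 in edgeR's quasi-likelihood test, where the whole table had 1 call, 0.00628% of rows. DESeq2 with the same covariates called 3 of the 29 (Abca4, Slc2a12 and Slc4a2) and 0.352% of rows. Because the genes were named through this contrast, nothing is read from either count.

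No member had all 7 Tg mice above all 5 Wt mice, which 0.22% of rows did. Likewise no member had all Tg mice below all Wt mice, which 0.113% of rows did. With shares this low and genes named through this contrast, nothing is read from these counts. The highest mouse exceeded the lowest by a median of 4.3-fold among the 17 higher genes and 1.65-fold among the 12 lower genes. Over all rows it was 1.86-fold. This ratio holds the genotype difference by which the genes were split, and the higher genes were also the less abundant. Nothing is therefore read from it.

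**Figure D1:**
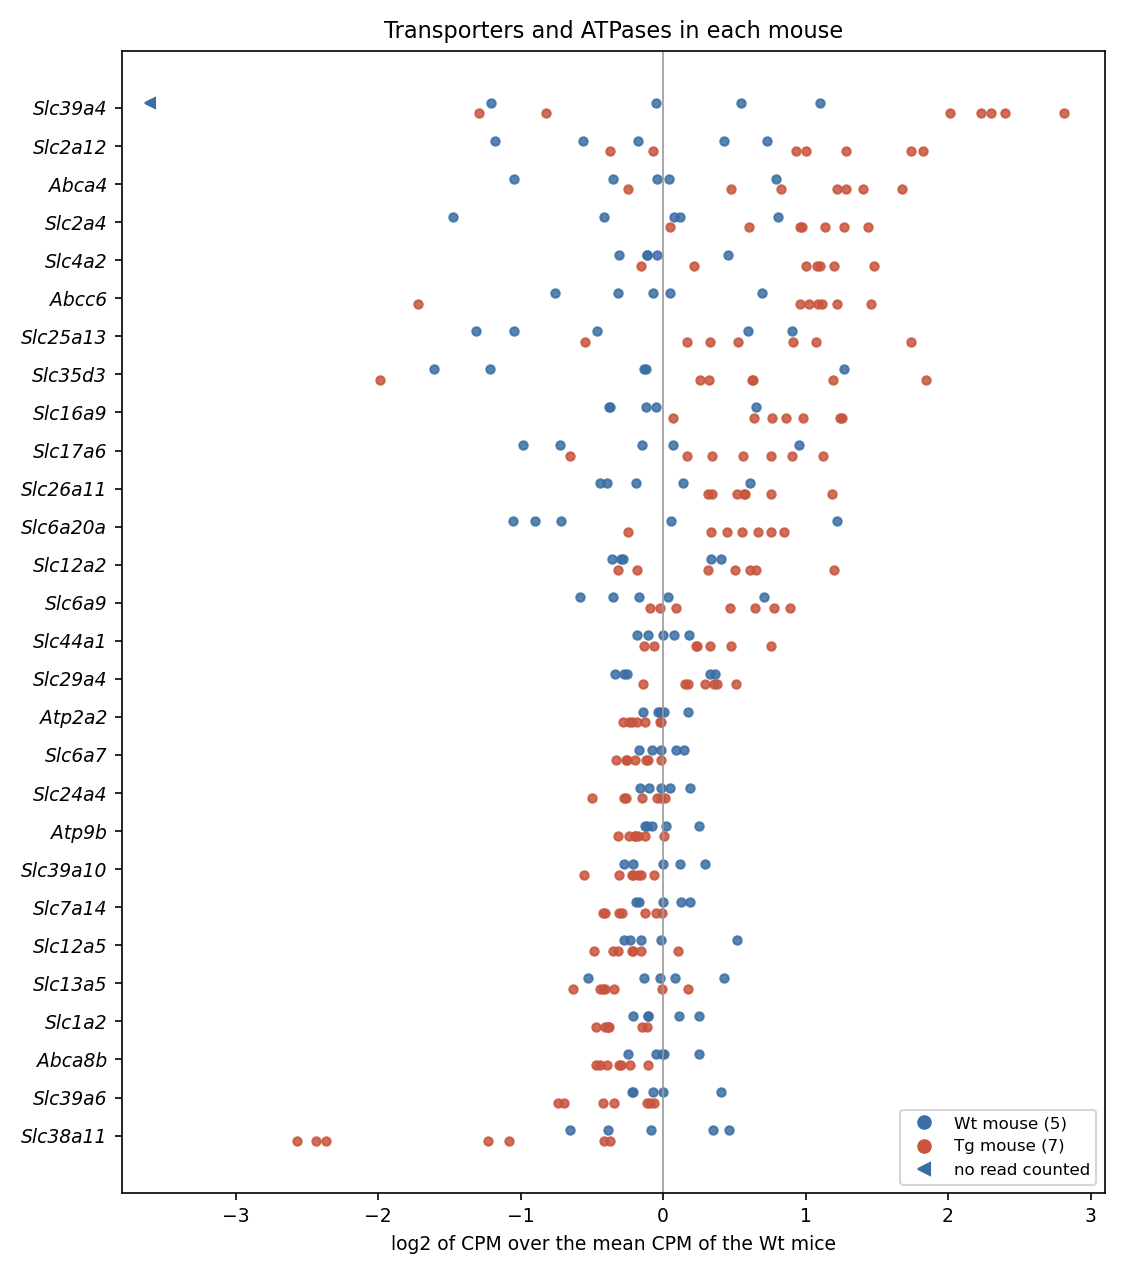
Log2 of each mouse's CPM over the mean CPM of the Wt mice, for 28 of the 29 genes in order of their Tg minus Wt difference; each point is a mouse (5 Wt, 7 Tg), and the triangle is a mouse with no read. The genes at the top spread widely among Tg mice, and the genes at the bottom, apart from Slc38a11, form tight bands.

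Levels per length of exon differed between the higher and the lower genes. That split is by the difference through which the genes were named, so nothing is read from the gap in level. Slc1a2 stood first at 150.3 ± 24.4 CPM per kb (SD, n = 12), then Atp2a2 at 71.1 ± 6.49 and Slc12a5 at 62.6 ± 12.8 CPM per kb, and the spreads of the latter pair overlapped. Slc39a10 (33.7 ± 5.19), Slc6a7 (24.4 ± 2.47) and Slc7a14 (20.8 ± 2.86 CPM per kb) came next. These 6 most abundant genes were all among the lower ones. The median level was 14.2 CPM per kb in the 12 lower genes and 1.41 CPM per kb in the 17 higher genes, where Slc6a9 at 8.58 ± 2.84 and Slc44a1 at 8.34 ± 1.73 CPM per kb led within each other's spread. At the bottom, Slc39a4, Abcc6 and Slc38a11 were at 0.35 ± 0.315, 0.233 ± 0.118 and 0.211 ± 0.128 CPM per kb, with overlapping spreads.

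**Figure D2:**
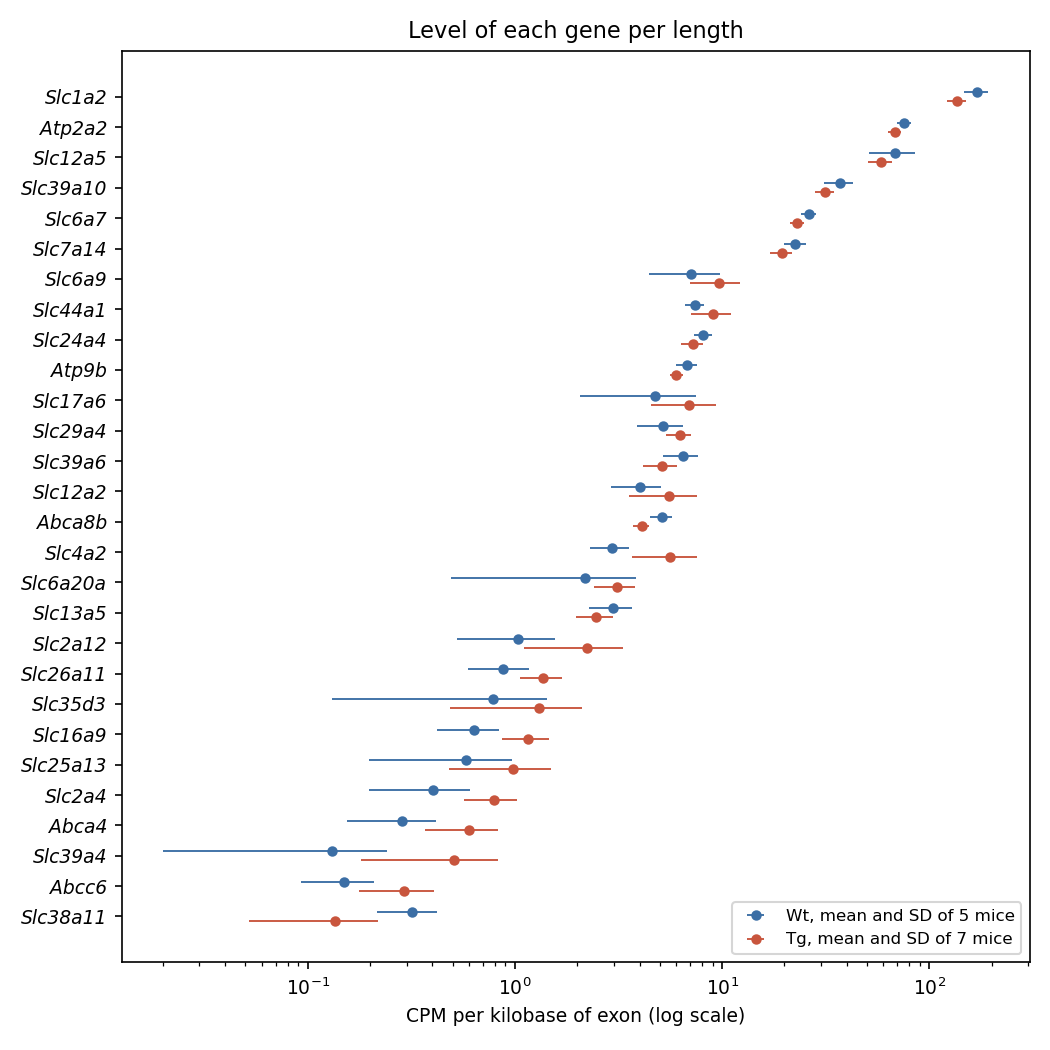
Mean level of 28 of the 29 genes in CPM per kilobase of exon on a log scale, with the SD over 5 Wt and 7 Tg mice. Slc1a2 is highest, and the 6 genes at the top are all lower in the Tg mice.

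Among the chloride, bicarbonate and sulfate carriers, 3 of 4 were higher in Tg mice and 1 was lower. Slc4a2, an anion exchanger that swaps chloride for bicarbonate and sits in the basolateral membrane of choroid plexus epithelium (chromosome 5, 24423837 to 24440950 of GRCm38), was at 33.5, 22.6, 23.7, 19.7 and 22.6 CPM in Wt 12, 41, 79, 80 and 95. Its lowest, median and highest Tg values were 21.9, 51.7 and 68.3 CPM. Tg 32, 68, 69, 91 and 92 lay above every Wt mouse, while Tg 67 at 28.4 CPM and Tg 93 at 21.9 CPM lay within the Wt range. The log2 fold change was 0.95 ± 0.25 (SE). The 5 mice with the most Slc4a2 were the 5 with the most Ttr.

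Slc12a2 imports sodium, potassium and chloride together and is known from choroid plexus and from immature neurons and glia (chromosome 18, 57878678 to 57946821). It was at 55.1, 34.0, 35.9, 57.8 and 35.5 CPM in Wt 12, 41, 79, 80 and 95, and at 35.0, 62.1 and 100.1 CPM as lowest, median and highest Tg value. Tg 91 was the highest mouse, and Tg 67 and Tg 93 were again among the low ones, so the groups overlapped (log2 fold change 0.51 ± 0.22).

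Its relative Slc12a5 exports chloride from mature neurons (chromosome 2, 164960802 to 164999731) and had the opposite sign. It was at 502, 729, 433, 420.1 and 457 CPM in the Wt mice in the same order, and at 364, 437 and 547 CPM as lowest, median and highest Tg value. Wt 41 was far above the other Wt mice, and the groups overlapped (log2 fold change -0.25 ± 0.11, -0.13 without Wt 41 and -0.38 without Wt 95). The ratio of importer to exporter, Slc12a2 over Slc12a5, was 0.11, 0.0467, 0.0829, 0.138 and 0.0776 in the Wt mice and 0.0703, 0.136 and 0.251 as lowest, median and highest Tg value. In a tissue piece the pair can come from different cells, so this ratio gives no balance within a cell type. The sulfate carrier Slc26a11 was at 2.34 to 4.84 CPM in Wt and 3.94 to 7.23 CPM in Tg mice.

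Promoter windows are shown for 4 genes, 3 that stood high in the same 5 Tg mice (Slc4a2, Slc2a12 and Abca4) and Slc1a2, the most abundant of the genes that stood lower. RefSeq windows of 300 bases around an annotated start (GRCm38.p6) were at hand for 19 of the 29 genes, 27 windows in all among 32851. Capitals mark the letters TAATCC on either strand, the core bound by the choroid plexus factor OTX2, or TATAAA on the given strand. Also searched on both strands were GTAAACA, a forkhead core, and TGACGTCA, the cyclic AMP response element. All 4 windows are on the + strand, Slc4a2 at chr5:24424982-24425281, Slc2a12 at chr10:22644761-22645060, Abca4 at chr3:122044210-122044509 and Slc1a2 at chr2:102706188-102706487. The windows of Slc2a12 and Abca4 span the start of the gene given below, while that of Slc4a2 begins 1145 bases and that of Slc1a2 47529 bases inside the gene, so the latter shows an internal start.
Slc4a2: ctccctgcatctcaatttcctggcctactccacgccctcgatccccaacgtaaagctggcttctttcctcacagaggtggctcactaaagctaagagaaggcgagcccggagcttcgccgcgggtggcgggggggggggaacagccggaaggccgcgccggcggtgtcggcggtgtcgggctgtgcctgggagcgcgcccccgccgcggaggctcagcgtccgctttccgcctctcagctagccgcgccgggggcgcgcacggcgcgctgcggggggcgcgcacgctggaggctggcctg
Slc2a12: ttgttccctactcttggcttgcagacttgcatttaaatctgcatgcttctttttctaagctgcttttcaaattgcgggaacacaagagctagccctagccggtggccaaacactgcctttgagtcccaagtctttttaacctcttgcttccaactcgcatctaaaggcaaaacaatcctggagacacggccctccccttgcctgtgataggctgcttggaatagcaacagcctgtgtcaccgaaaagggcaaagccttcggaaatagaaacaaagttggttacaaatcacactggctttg
Abca4: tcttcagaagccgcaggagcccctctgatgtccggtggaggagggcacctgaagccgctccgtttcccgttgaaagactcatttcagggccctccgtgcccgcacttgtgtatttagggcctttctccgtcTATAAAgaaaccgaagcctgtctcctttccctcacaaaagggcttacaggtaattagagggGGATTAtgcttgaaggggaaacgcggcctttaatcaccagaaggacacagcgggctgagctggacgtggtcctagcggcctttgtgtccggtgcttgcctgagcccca
Slc1a2: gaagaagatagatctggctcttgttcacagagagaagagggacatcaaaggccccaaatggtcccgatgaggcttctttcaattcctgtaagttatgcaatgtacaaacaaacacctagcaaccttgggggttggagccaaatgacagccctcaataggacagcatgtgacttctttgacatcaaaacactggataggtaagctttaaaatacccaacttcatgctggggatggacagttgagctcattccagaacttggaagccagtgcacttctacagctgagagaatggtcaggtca
TAATCC was in 3 of the 27 windows (Abca4, Slc13a5 and Slc24a4), 11.1%, and in 7.06% of all windows, and TATAAA in 1 of the 27 (Abca4), 3.7%, and in 8.32% of all windows. GTAAACA and TGACGTCA were in none of the 27 and in 3.65% and 1.79% of all windows. The windows differed in base composition, with 37 CG pairs for Slc4a2, 15 for Abca4, 6 for Slc2a12 and 1 for Slc1a2, beside a median of 17.0 over the 27 windows and 7.0 over all windows. A second window of Slc4a2 (chr5:24425594-24425893), not shown, had 16. Of the genes with the OTX2 core, Slc13a5 and Slc24a4 were among those lower in Tg mice, and neither Slc4a2 nor Slc2a12 had it. A match of letters is a description, not a binding site.

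Both glucose carriers were higher in Tg mice. Slc2a12 encodes GLUT12, a facilitative glucose carrier (chromosome 10, 22645011 to 22704285), and was at 7.29, 1.94, 5.91, 3.90 and 2.98 CPM in Wt 12, 41, 79, 80 and 95. Its lowest, median and highest Tg values were 3.40, 8.83 and 15.6 CPM, and again Tg 67 and Tg 93 alone of the Tg mice lay within the Wt range (log2 fold change 1.20 ± 0.35). Slc2a4, the insulin-responsive GLUT4, was scarce, with 0.504 to 2.45 CPM in Wt and 1.45 to 3.79 CPM in Tg mice. Slc16a9, the named monocarboxylate carrier family member, was at 3.85, 1.89, 1.88, 2.36 and 2.25 CPM in the Wt mice and at 2.57, 4.44 and 5.84 CPM as lowest, median and highest Tg value. Here Tg 67 at 4.15 CPM was above every Wt mouse (log2 fold change 0.88 ± 0.24).

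The zinc carriers of the Slc39 family bring zinc into the cytosol, and they split. Slc39a4, best known for zinc uptake in the intestine (chromosome 15, 76612383 to 76617384), had 0.875, 0, 0.596, 0.177 and 0.394 CPM in Wt 12, 41, 79, 80 and 95, where no read in Wt 41 allows up to 0.16 CPM. Its lowest, median and highest Tg values were 0.167, 1.92 and 2.87 CPM. Tg 32, 68, 69, 91 and 92 stood above all Wt mice, and Tg 93 rested on 3 reads (log2 fold change 2.08 ± 0.72, the largest of the 29).

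Slc39a10 (chromosome 1, 46807544 to 46892852) was at 186, 225, 195, 276 and 244 CPM in the Wt mice and at 153, 195 and 215 CPM as lowest, median and highest Tg value. Slc39a6 was at 25.0, 34.8, 22.5, 22.6 and 26.2 CPM in the Wt mice and at 15.7, 20.7 and 25.1 CPM as lowest, median and highest Tg value. Both overlapped between genotypes, with log2 fold changes of -0.22 ± 0.11 (-0.13 without Wt 80) and -0.36 ± 0.13.

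Of the 8 transmitter, amino acid and monoamine carriers, 4 were higher and 4 lower in Tg mice. Slc1a2, the astrocytic glutamate carrier GLT-1 (chromosome 2, 102658659 to 102790784), was at 2076, 2419, 1929, 2666 and 2079 CPM in Wt 12, 41, 79, 80 and 95. Its lowest, median and highest Tg values were 1609, 1710.2 and 2067 CPM. Tg 32, 67, 68, 69 and 91 lay below every Wt mouse, and Tg 92 and Tg 93 at 2067 and 2021 CPM reached the lower Wt values (log2 fold change -0.32 ± 0.11). Tg 67, with the least Ttr of all mice, was the second lowest in Slc1a2, and the other 4 of its 5 lowest mice were among the 5 with the most Ttr. With the choroid plexus score described below its log2 fold change was -0.23 ± 0.14, and with the oligodendrocyte score -0.17 ± 0.13. Gfap, the intermediate filament of the same cell type, was at 49.6 to 208 CPM in Wt and 184 to 329 CPM in Tg mice.

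The Slc6 family also split. Slc6a7, a proline carrier of glutamatergic nerve endings, was at 85.6, 99.9, 95.9, 80.3 and 89.5 CPM in the Wt mice and at 71.6, 78.6 and 89.5 CPM as lowest, median and highest Tg value. Slc6a9, the glycine carrier GlyT1, was at 59.7, 28.6, 37.4, 32.5 and 24.4 CPM in the Wt mice and at 34.2, 50.5 and 67.6 CPM as lowest, median and highest Tg value. Slc6a20a, a proline and imino acid carrier, was at 20.7, 4.77, 5.41, 9.22 and 4.28 CPM in the Wt mice and at 7.48, 13.0 and 16.0 CPM as lowest, median and highest Tg value. Wt 12 was the highest Wt mouse for Slc6a9 and Slc6a20a, as it was for Ttr and for the oligodendrocyte markers, and all 3 genes overlapped between genotypes. Their log2 fold changes were -0.18 ± 0.08, 0.49 ± 0.22 and 0.64 ± 0.33, and without Wt 12 the latter pair were 0.74 and 1.18. The same pair were 0.39 and 0.44 without Wt 95, and 0.07 and 0.16 in library batch 1 alone. With the oligodendrocyte score described below they were -0.05 and 0.01.

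Slc38a11, a little studied amino acid carrier, had the lowest fold change of the 29 genes (-1.19 ± 0.41) at a low level. It was at 1.75, 1.05, 0.871, 1.89 and 1.29 CPM in the Wt mice and at 0.231, 0.584 and 1.06 CPM as lowest, median and highest Tg value, with 5 Tg mice below every Wt mouse. The vesicular glutamate carrier Slc17a6, abundant in thalamic neurons, was at 13.0 to 49.7 CPM in Wt and 16.3 to 55.8 CPM in Tg mice. The lysosomal Slc7a14 ran from 195 to 254 CPM in Wt and 166 to 221 CPM in Tg mice, and the monoamine carrier Slc29a4 from 11.8 to 19.2 and from 13.5 to 21.2 CPM.

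**Figure D3:**
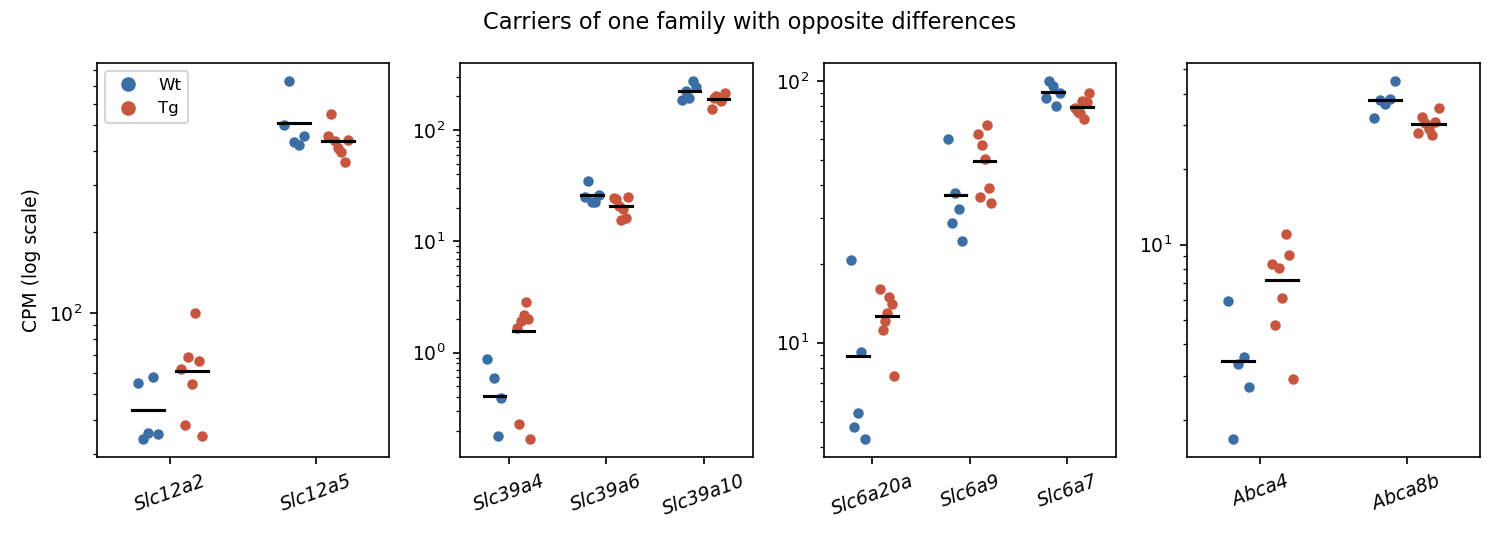
CPM on a log scale for carriers of the same family with opposite Tg minus Wt differences; points are mice (5 Wt, 7 Tg), bars are group means, and a mouse with no read (Wt 41 for Slc39a4) is left out of the points. The carriers that are higher in Tg mice are the less abundant ones of their family, in CPM and per kb. This describes only genes named through the Tg and Wt difference.

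Both calcium genes were lower in Tg mice by a small amount. Atp2a2, the SERCA2 pump that fills the endoplasmic reticulum with calcium, was at 448, 517, 417, 460.2 and 453 CPM in the Wt mice and at 377, 404 and 455 CPM as lowest, median and highest Tg value (log2 fold change -0.16 ± 0.08). Slc24a4, a potassium-dependent sodium-calcium exchanger, was at 38.0, 41.9, 32.8, 36.4 and 34.3 CPM in the Wt mice and at 26.0, 33.1 and 37.1 CPM as lowest, median and highest Tg value (log2 fold change -0.19 ± 0.09). In both, Wt 41 was the highest mouse, and the groups overlapped.

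Among the metabolite, choline and nucleotide-sugar carriers, 3 of 4 were higher in Tg mice. Slc44a1, a choline carrier (chromosome 4, 53440413 to 53622478), was at 58.3, 45.2, 51.2, 54.0 and 47.7 CPM in the Wt mice and at 46.8, 60.6 and 86.6 CPM as lowest, median and highest Tg value. Slc25a13, the mitochondrial aspartate-glutamate carrier, was at 4.14, 0.888, 3.34, 1.60 and 1.07 CPM in the Wt mice and at 1.51, 3.18 and 7.36 CPM as lowest, median and highest Tg value. For Slc44a1 the same 5 Tg mice stood above all Wt mice, whereas Slc25a13 overlapped (log2 fold changes 0.31 ± 0.14 and 0.93 ± 0.40). Slc35d3 ran from 0.675 to 4.96 CPM in Wt and 0.519 to 7.39 CPM in Tg mice, and the citrate carrier Slc13a5, the lower one, from 10.2 to 19.8 and from 9.47 to 16.6 CPM.

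Of the 3 ABC transporters, Abca4, which flips retinoid lipids in photoreceptors (chromosome 3, 122044443 to 122180123), was at 5.95, 1.67, 3.34, 3.55 and 2.70 CPM in the Wt mice and at 2.90, 8.03 and 11.0 CPM as lowest, median and highest Tg value. Its relative Abca8b was at 32, 37.7, 36.5, 38.1 and 45.0 CPM in the Wt mice and at 27.3, 30.6 and 35.1 CPM as lowest, median and highest Tg value. The 5 mice with the most Ttr were the 5 highest for Abca4 and the 5 lowest for Abca8b (log2 fold changes 1.14 ± 0.32 and -0.33 ± 0.10). Abcc6 ran from 0.506 to 1.39 CPM in Wt and from 0.26 to 2.36 CPM in Tg mice.

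Among the phospholipid flippases, P-type ATPases that move lipids to the cytosolic leaflet, Atp9b is found at the Golgi. It was at 74.8, 96.5, 74.2, 76.6 and 82.1 CPM in the Wt mice and at 64.9, 70.6 and 81.1 CPM as lowest, median and highest Tg value. Of the Tg mice, 6 of 7 lay below every Wt mouse and Tg 67 was the exception (log2 fold change -0.19 ± 0.07).

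Set beside Ttr, 6 of the 17 higher genes (Slc4a2, Slc2a12, Slc2a4, Slc44a1, Slc39a4 and Abca4) had the same 5 highest mice as Ttr, which 0.791% of rows did, and a further 6 shared 4 of those mice. Among the 12 lower genes, Abca8b and Atp9b had these 5 mice as their lowest, as did 0.232% of rows, and 6 more shared 4. No share over all rows is given here for the counts of 4 shared mice. All 5 mice are Tg, so these counts overlap with the contrast that named the genes, and nothing is read from them. The mice form separate groups in Ttr, so no correlation is given.

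**Figure D4:**
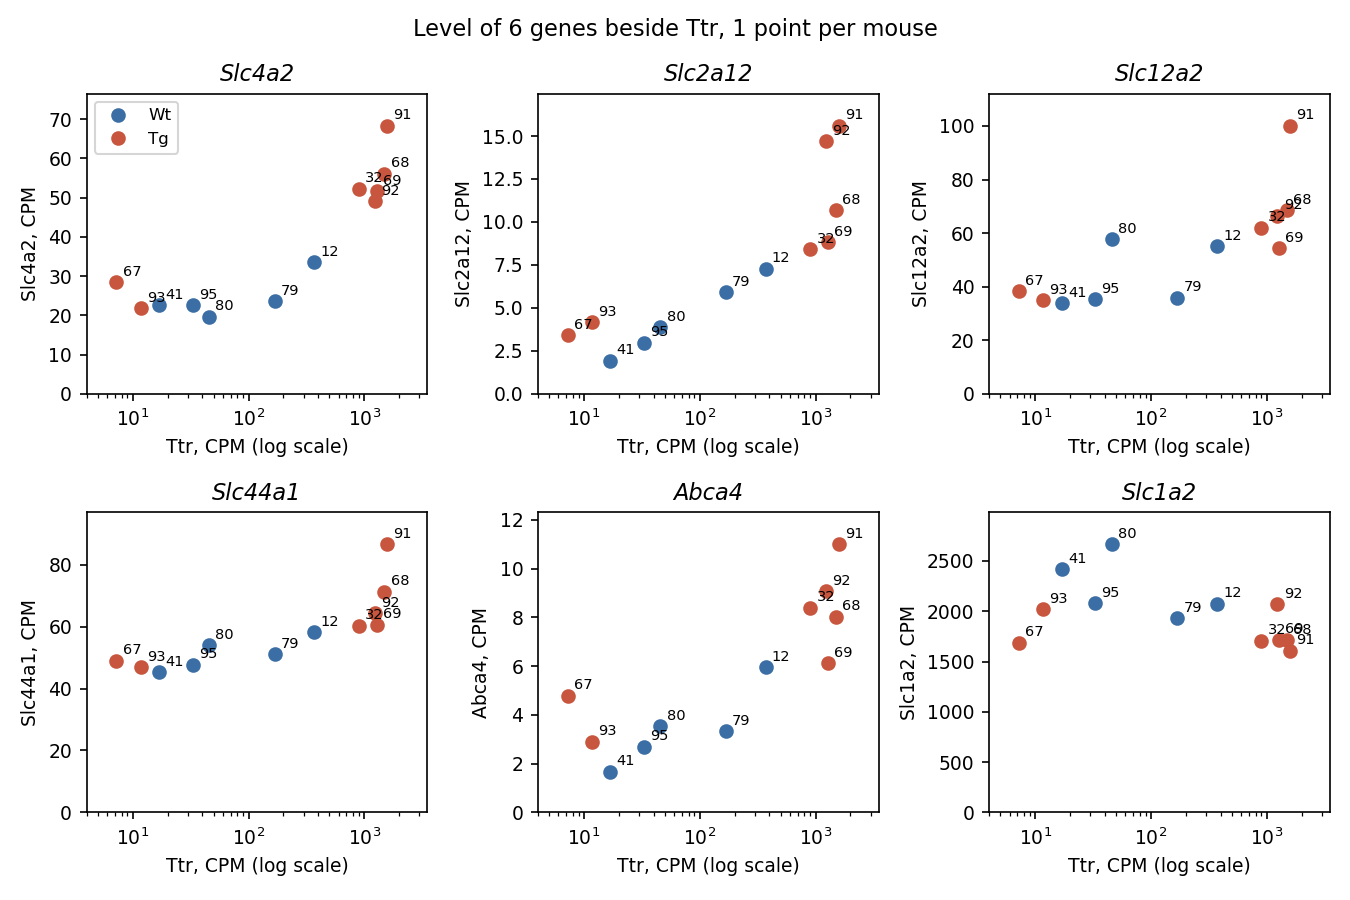
CPM of 6 genes against CPM of Ttr on a log scale, 1 point per mouse with its number. Tg 67 and Tg 93 sit at the left with the Wt mice for Slc4a2, Slc2a12, Slc12a2 and Slc44a1, and the other 5 Tg mice sit at the right.

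With the mean log2 CPM of the 15 choroid plexus markers as a further covariate, 15 of the 17 higher and 11 of the 12 lower genes had a smaller difference. The median log2 fold change of the higher genes was 0.24 in place of 0.88, and that of the lower genes -0.16 in place of -0.24. Slc12a2 went from 0.51 to 0.01 ± 0.20, Slc44a1 from 0.31 to 0.02 ± 0.12 and Slc4a2 from 0.95 to 0.24 ± 0.13, and Slc39a4 turned from 2.08 to -0.14 ± 0.50. Slc38a11 stayed near its value at -1.13 ± 0.52, and Abcc6 and Slc17a6 went up, to 1.18 ± 0.50 and 0.89 ± 0.34.

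With the oligodendrocyte markers the medians were 0.24 and -0.17, and the fit turned the sign of Slc12a2, Slc25a13, Slc44a1 and Slc6a9, whose values became -0.07, -0.09, -0.03 and -0.05. With the thalamus markers the medians were 0.47 and -0.23, no sign turned, and Slc17a6 went from 0.75 to 0.35 ± 0.28. There 16 of the 17 higher and 9 of the 12 lower genes had a smaller difference. The oligodendrocyte and thalamus scores were added after the data were seen. The scores are made of markers named through the same contrast as the 29 genes, so nothing on tissue content is read from these fits, and its part in the differences was not tested.

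**Figure D5:**
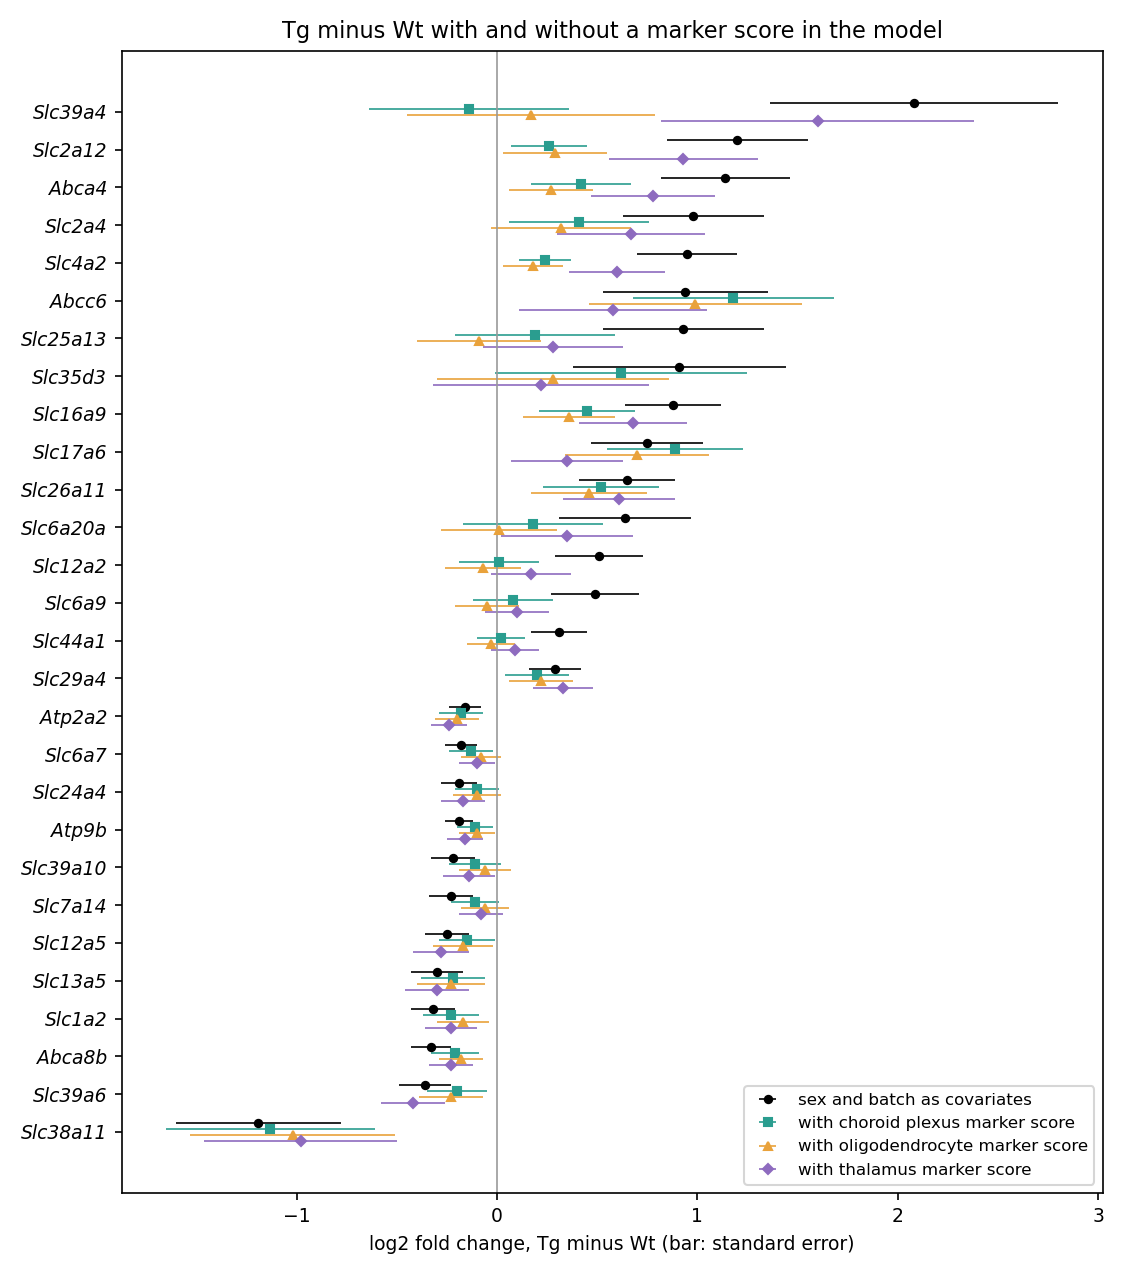
Log2 fold change, Tg minus Wt, with its standard error for 28 of the 29 genes, from the model with sex and batch and from models that add a marker score. Most of the higher genes lie closer to 0 with each of the marker scores, while Slc38a11 stays between -1.19 and -0.98 in all 4 models.

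Within library batch 1 alone (3 Wt and 5 Tg mice, with sex as covariate) all 29 genes kept their sign. Of these, 24 had a smaller difference than in all mice. The batch 1 mice are among those whose Tg and Wt comparison named the genes, so nothing is read from either count. Slc39a4 went from 2.08 to 0.73 ± 0.99, Slc2a4 from 0.98 to 0.33 ± 0.36 and Slc6a9 from 0.49 to 0.07 ± 0.26. The medians were 0.43 for the higher and -0.20 for the lower genes, with Slc4a2 at 0.43 ± 0.33, Slc2a12 at 0.52 ± 0.45, Slc1a2 at -0.28 ± 0.16 and Slc38a11 at -1.73 ± 0.50. Batch 2 held Wt females and Tg males only, which leaves the sexes and the genotypes confounded within it. Batch 1 was unbalanced as well. Its labelled females were Wt 12 and Tg 32, 91, 92 and 93, and its labelled males Wt 41, Wt 95 and Tg 67. The label of Wt 41 and its Xist disagree.

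The comparison of females with males did not choose the genes and could be tested. None of the 29 passed an adjusted p of 0.1 in edgeR, nor did any row (0.0%), and the lowest adjusted p among the 29 was 0.332, for Slc13a5. At an unadjusted p under 0.05 there were 7 of the 29, 24.1%, beside 11.3% of all rows. Of these, 4 were higher and 3 lower in females. DESeq2 called 175 rows and none of the 29. Without Wt 95, which leaves Wt 41 as the only Wt mouse labelled male, edgeR called 540 rows, 3.39%, and with them Slc12a5 (log2 fold change, female minus male, -0.41 ± 0.09, adjusted p 0.0682) and Slc13a5 (-0.52 ± 0.13, adjusted p 0.0882). Without Wt 41, whose label and Xist disagree, none of the 29 was called, and the difference was -0.16 ± 0.11 for Slc12a5 and -0.39 ± 0.14 for Slc13a5. In all 12 mice, Slc12a5 averaged 430.5 ± 43.6 CPM in 7 females and 516 ± 130 CPM in 5 males (SD), and Slc13a5 11.6 ± 1.78 and 15.5 ± 3.16 CPM. The male values for Slc12a5 include Wt 41 at 729 CPM, and the other 4 males averaged 462 ± 59.4 CPM for Slc12a5 and 14.5 ± 2.42 CPM for Slc13a5.

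Batch 2 against batch 1 gave no call by edgeR among the 29 or in the table (0.0%). At an unadjusted p under 0.05 there were 2 of the 29 (6.9%), Slc24a4 and Slc39a6, beside 7.64% of rows, and DESeq2 called 24 rows, none of them among the 29. Whether the genotype difference itself differed between the sexes was tested by the interaction, with no call by edgeR (0.0%). There 1 of the 29, Slc6a20a, had an unadjusted p under 0.05 (3.45%, beside 3.56% of rows), and DESeq2 called 17 rows, none of them among the 29.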

How the data were processed

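Per the study's methods, STAR and Bowtie 2 placed the Ion Torrent reads on mm10, and the authors counted uniquely placed reads per gene; strand use is not given in the sources used here. The deposited table holds raw counts for 15928 rows without names. The deposited normalization factors are a ratio to the common scale of the libraries and were not used for scaling; the batch numbers deposited beside them were. Row names were recovered by solving the 12 size factors under which mean normalized counts equal the means in the study's table, with a relative difference under 1e-09 (largest 4.29e-10). This named 1349 of 1684 genes. With means shifted on purpose, no pair was found in 10 trials. Among the named rows, 7 neighbouring names were out of alphabetical order. Of the 33 genes of the rule in that table, Slc16a8, Slc24a5, Slco1a5 and Slc30a2 were not named. Rows without a name are not reported by name, and 1 of the 29 named genes counts in the totals but is not reported here. That table's fold changes and p-values, the authors' own comparison, were not used.

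Counts were fitted with edgeR 4.0.16 (R 4.3.3), TMM scaling, filterByExpr and the quasi-likelihood test on sex, batch and genotype, at a Benjamini-Hochberg adjusted p under 0.1; DESeq2 1.42.0 was an alternative. Standard errors are the log2 fold change over the root of F. Summaries used Python 3.11.15. The fit and the naming were tested on simulated data. No pair of libraries of a genotype agreed within sampling noise (lowest chi-square per gene 17.7). Exon lengths and positions came from GENCODE (GRCm38, the same build as mm10). Values by mouse are given for the most abundant gene and the gene with the largest absolute log2 fold change of each role, and for carriers of the same family with opposite signs; other genes are given by range. Marker scores are mean log2 CPM with a prior count of 2. The genes, roles and marker lists were chosen with earlier results of these data known.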

Additional observations from a re-analysis of the deposited data

Results flagged for a closer look

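In each genotype, the highest and lowest mouse of every gene was compared with its nearest neighbour. A mouse stood apart in 6 of 58 such groups, and chance sets a mouse apart in about 1 in 20 groups. Wt 12 stood above the other Wt mice for Slc16a9 at 3.85 CPM (next 2.36), Slc35d3 at 4.96 CPM (next 1.89) and Slc4a2 at 33.5 CPM (next 23.7). This mouse also had the most Ttr, 371 CPM, of the Wt mice. Wt 41 stood above the others for Slc12a5 at 729 CPM (next 502), and it had the most Camk2a of all mice, 3053 CPM. Among Tg mice, Tg 92 stood below the others for Abcc6 at 0.26 CPM (next 1.67), and Tg 69 above them for Slc26a11 at 7.23 CPM (next 5.36).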

How the results depend on the processing

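For the genes called in the table for Tg versus Wt, the count of 1 became 56 with DESeq2, 0 in batch 1 alone, and 2 with at least 1 CPM in every library or with the choroid plexus, oligodendrocyte or thalamus score as covariate. It was 1 to 2 when a mouse was left out, with 2 without Tg 93. Of the 29 transporters and ATPases, DESeq2 called 3 in place of 0 for this contrast, and leaving out a mouse gave 0 to 0. DESeq2 called 175 rows for F versus M, 24 for batch and 17 for the interaction, where edgeR called 0; the cause was not tested. Leaving out a mouse gave 0 to 540 rows and 0 to 2 of the 29 for F versus M (1 row without Wt 41, 540 without Wt 95), 0 to 0 rows for batch, and 0 to 1 row for the interaction (1 without Tg 32 or Wt 95). RLE scaling, no filter, an adjusted p under 0.05 and leaving out sex, batch or both kept each of these counts where they were run.

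Of 609 log2 fold changes of single genes under the alternatives, 588 moved by less than the SD within genotypes and 5 changed sign, of which 1 with the choroid plexus score and 4 with the oligodendrocyte score. None of the 348 values with a mouse left out moved by more than that SD. Leaving out 1 mouse can hardly move a difference by that much, so nothing is read from this count. Shifts under the SD could still be large, as for Slc35d3, from 0.91 to 1.49 without Wt 12 (SD 1.09). Levels per kb with the longest transcript in place of the union of exons moved by more than an SD for 9 of 29 genes. The wider tolerance of 1e-08 named the same 29 genes. No paired analysis was possible because the replicate numbers name single mice and none is shared between genotypes. Genes under a few CPM, such as Slc39a4 with 3 reads or fewer in 3 mice, rest on little depth. Slc6a20a and Abca8b have close copies in the genome, and reads shared with those could not be assigned to either.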

Other observations

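App was not at the same level in all Tg mice. It was at 3393, 2991 and 3147 CPM in Tg 32, 91 and 92, which are labelled female, and at 5198, 5139.5 and 5727 CPM in Tg 67, 68 and 69, which are labelled male. Tg 93, labelled female and with Xist at 173 CPM, was at 5145 CPM, among the males. Tg 67 and Tg 93, the Tg mice with the least Ttr, are thus both at the higher App level, but so are Tg 68 and Tg 69 with 1492 and 1278 CPM of Ttr. No test was run on this pattern.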
